A study of Mus musculus with 10 samples.

Results

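A list of 34 genes of cholesterol and fatty acid synthesis, chosen by name, was followed through 10 RNA-seq libraries of sorted mouse prostate cells. All 34 were found in the table of 24514 genes. They comprise 6 genes of the mevalonate steps, 11 of the squalene and sterol steps, 4 that control the pathway, 3 of fatty acid synthesis, 7 of fatty acid desaturation and elongation, and 3 of fatty acid activation and sterol transport.

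Cholesterol is built from acetyl-CoA. The mevalonate steps yield farnesyl diphosphate, which is joined into squalene and closed into lanosterol, and lanosterol is then demethylated, reduced and isomerised to cholesterol. When sterol in the endoplasmic reticulum is low, the escort protein SCAP carries the SREBP transcription factors to the Golgi for cleavage, and the released factors switch on most enzymes of the pathway together; INSIG proteins hold them back. Fatty acids are made from the same acetyl-CoA, and are then desaturated, elongated and activated. In human prostate cancer cell lines, androgen is known to raise many of these genes.

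The mice were C57BL/6, aged 8 to 12 weeks, and every group was depleted of lineage-positive cells (Lin-). Stromal cells (Lin-/CD24-/CD49f-) gave 2 libraries and basal cells (Lin-/CD24low/CD49fhigh) gave 2. Luminal cells (Lin-/CD24high/CD49flow) were split into a gate with surface Sca-1 (Sca-1+ luminal, 3 libraries) and one without it (Sca-1- luminal, 3 libraries). Separate mice for the libraries of a group are not stated in the labels, nor is it stated whether the sorted cells had been in culture, although a culture protocol with dihydrotestosterone is listed for all of them. No batch is named in the labels.

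Depth was 20.3 to 27.2 M (mega) mapped fragments per library, read from the steps between low values. Defining markers were present in each group: the 5 basal markers summed to 4766 to 6633 FPKM in basal libraries, against at most 465 FPKM elsewhere, and the 5 secretory luminal markers summed to 528 to 1780 FPKM in stromal, 2767 to 4187 FPKM in basal, 4141 to 8301 FPKM in Sca-1+ luminal and 25774 to 43823 FPKM in Sca-1- luminal libraries. Pbsn made up most of the secretory sum in Sca-1- luminal libraries, at 17563 to 33704 FPKM. Krt8 and Krt18 of that list did not differ at a limma adjusted p under 0.05 between Sca-1- luminal and basal or Sca-1+ luminal libraries. The 4 proximal luminal markers summed to 780 to 4834 FPKM in Sca-1+ luminal libraries, against 58.6 to 171 FPKM in those of the Sca-1- gate. The Sca-1+ luminal libraries stood apart from each other in the 7 fibroblast markers, which summed to 5134, 2531 and 357 FPKM in replicates 1, 2 and 3. The same sum was 5425 to 7175 FPKM in stromal, 502 to 689 FPKM in basal and 76.9 to 136 FPKM in Sca-1- luminal libraries. In Sca-1+ luminal replicates 1, 2 and 3, the 5 smooth muscle markers summed to 187, 256 and 16.1 FPKM. These markers summed to 111 to 213 FPKM in stromal, 44.7 to 80.7 FPKM in basal and 35.9 to 52.2 FPKM in Sca-1- luminal libraries. The 5 endothelial markers summed to 25.9, 20.5 and 4.66 FPKM in the same replicates, and to 4.96 to 12.5 FPKM in the other groups. The 8 adipocyte markers summed to 26.5 to 39.0 FPKM in stromal, 14.4 to 18.5 FPKM in basal, 3.39 to 35.7 FPKM in Sca-1+ luminal (lowest in replicate 3) and 4.20 to 16.2 FPKM in Sca-1- luminal libraries. Most of this sum was Fabp4, and Cfd was called higher in the Sca-1+ luminal gate against the Sca-1- one (1.81 ± 0.53 on the log2 scale, SE, limma adjusted p = 0.0268), while the other 6 (Adipoq, Plin1, Cidec, Lep, Retn and Plin4) were under 1 FPKM in every library. The 8 leukocyte markers summed to 7.44 to 17.3 FPKM in the 4 stromal and basal libraries. In the 6 luminal libraries the sum was 106 to 499 FPKM, most of it Cd52 (96.4 to 492 FPKM). Laptm5, Tyrobp, Fcer1g and Lyz2 reached at most 14.2 FPKM, and Ptprc, Cd3e and Cd79a were under 1 FPKM in every library. The part of these other cell types in the results that follow was not tested.

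All 34 genes passed the filter for testing (1 FPKM or more in at least 2 libraries). Tm7sf2 passed only through the 3 Sca-1- luminal libraries, where it is high, and was at 0 in the other 7. Its calls as lower against that gate are counted in the totals below but support nothing. Of 340 values, 10 were listed at 0, all of Fdft1 or Tm7sf2, and 9 others rested on fewer than 50 estimated fragments, the lowest on 12 (Dhcr7 in basal replicate 2). Mean expression was highest in basal libraries for 15 genes, in stromal libraries for 9, in Sca-1- luminal libraries for 8 and in Sca-1+ luminal libraries for 2. It was lowest in stromal libraries for 13 genes (1 of them, Tm7sf2, tied at 0 with basal and Sca-1+ luminal libraries), in basal libraries for 11, in Sca-1- luminal libraries for 8 and in Sca-1+ luminal libraries for 2. In bulk RNA, fewer cells of a type and less RNA per cell cannot be told apart.

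**Figure D1:**
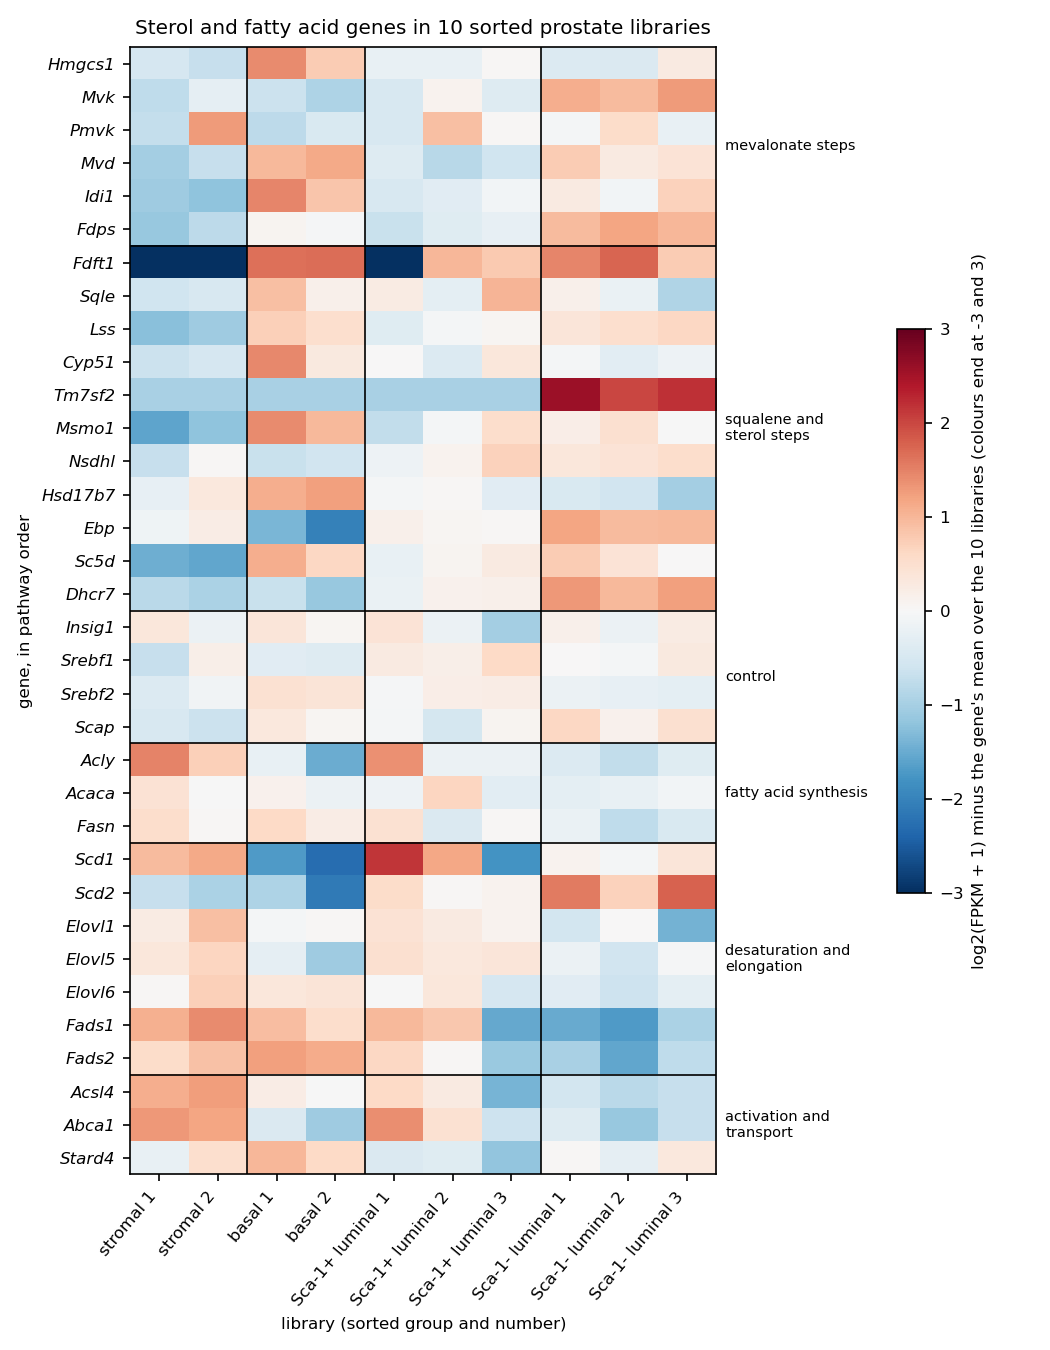
Expression of the 34 genes in each of the 10 libraries, as log2(FPKM + 1) minus the gene's mean over all libraries (red above the mean, blue below; colours end at -3 and 3). The sterol genes split into those high in basal libraries (Hmgcs1, Idi1, Msmo1, Hsd17b7) and those high in Sca-1- luminal libraries (Mvk, Fdps, Ebp, Dhcr7), and Fdft1 is listed at 0 in 3 libraries.

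Basal cells were set against Sca-1- luminal cells. Within the sterol pathway the genes moved in opposite directions: Hmgcs1, Idi1, Cyp51, Msmo1 and Hsd17b7 were higher in basal libraries, and Mvk, Fdps, Tm7sf2, Nsdhl, Ebp and Dhcr7 were lower. Among the other genes, Srebf2, Fasn, Fads1 and Fads2 were higher and Scd2 was lower. In all, 16 of 34 (47.1%) were called at a limma adjusted p under 0.05, against 46.2% of the 12435 genes tested. Called higher were 9 (20.2% of all genes tested) and called lower 7 (26.0%). The share of these genes called was thus close to that of all genes. Their median log2 change was 0.26 (0.32 without Tm7sf2 and Fdft1, which are listed at 0 in some libraries), against -0.05 for all genes tested.

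Hmgcs1 (chromosome 13, 119690379 to 119708260, mm10), whose enzyme makes the HMG-CoA that feeds the pathway, stood at 12.7 and 11.0 FPKM in stromal, 51.4 and 32.0 FPKM in basal, 15.8, 15.7 and 18.8 FPKM in Sca-1+ luminal and 13.5, 13.4 and 22.4 FPKM in Sca-1- luminal libraries. Both basal libraries lay above all 8 others. On the log2(FPKM + 1) scale, on which all changes are given and which understates changes of genes near 1 FPKM, the basal against Sca-1- luminal change was 1.29 ± 0.29 (SE), with an adjusted p of 0.00515. Idi1 (chromosome 13, 8885501 to 8892451), the isomerase that makes the second building block of the isoprenoid chain, had 4.50 and 4.00 FPKM in stromal, 30.9 and 19.4 FPKM in basal, 7.32, 8.12 and 9.93 FPKM in Sca-1+ luminal and 12.8, 9.95 and 17.6 FPKM in Sca-1- luminal libraries. Its basal values were again the highest of the 10, and its change was 0.86 ± 0.29 (SE, adjusted p = 0.0358).

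Msmo1 (chromosome 8, 64718139 to 64733792), which oxidises the methyl groups of early sterols, had the highest mean FPKM of the sterol steps. It stood at 16.8 and 22.0 FPKM in stromal, 141 and 102 FPKM in basal, 30.7, 49.7 and 74.8 FPKM in Sca-1+ luminal and 59.9, 73.2 and 51.4 FPKM in Sca-1- luminal libraries, a basal against Sca-1- luminal change of 0.97 ± 0.36 (SE, adjusted p = 0.0486). Hsd17b7 (chromosome 1, 169949535 to 169969241), the keto-sterol reductase of the same demethylation, had 2.82 and 4.55 FPKM in stromal, 8.60 and 9.61 FPKM in basal, 3.31, 3.60 and 2.56 FPKM in Sca-1+ luminal and 2.28, 2.01 and 1.23 FPKM in Sca-1- luminal libraries. The basal libraries were the highest for both genes, and Hsd17b7 had the largest change of the 5 sterol genes that were higher, at 1.85 ± 0.27 (SE, adjusted p = 0.000587). Cyp51 (chromosome 5, 4081145 to 4104746), the lanosterol demethylase, had 7.58 and 8.54 FPKM in stromal, 35.9 and 15.6 FPKM in basal, 12.6, 9.20 and 16.2 FPKM in Sca-1+ luminal and 12.0, 9.85 and 11.1 FPKM in Sca-1- luminal libraries. Both basal libraries lay above the Sca-1- luminal libraries but far from each other, and Sca-1+ luminal replicate 3 exceeded basal replicate 2; the basal against Sca-1- luminal change was 1.05 ± 0.34 (SE, adjusted p = 0.0312).

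The sterol genes that were lower in basal libraries sit at other steps. Mvk (chromosome 5, 114444269 to 114460591), the kinase that phosphorylates mevalonate, stood at 1.11 and 1.99 FPKM in stromal, 1.30 and 0.901 FPKM in basal, 1.60, 2.89 and 1.78 FPKM in Sca-1+ luminal and 6.70, 6.00 and 7.79 FPKM in Sca-1- luminal libraries. Fdps (chromosome 3, 89093588 to 89101959), which makes farnesyl diphosphate, stood at 2.19 and 3.07 FPKM in stromal, 6.44 and 5.84 FPKM in basal, 3.41, 4.45 and 4.88 FPKM in Sca-1+ luminal and 12.5, 14.8 and 12.9 FPKM in Sca-1- luminal libraries. For both genes the 3 Sca-1- luminal libraries were above all 7 others, and the basal against Sca-1- luminal changes were -1.90 ± 0.27 (SE, adjusted p = 0.000508) for Mvk and -1.01 ± 0.23 (SE, adjusted p = 0.0063) for Fdps.

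Ebp (chromosome X, 8185329 to 8193512), the isomerase that moves the ring double bond, had 14.8 and 19.3 FPKM in stromal, 5.65 and 3.23 FPKM in basal, 18.2, 16.9 and 16.9 FPKM in Sca-1+ luminal and 38.2, 32.5 and 32.8 FPKM in Sca-1- luminal libraries. Basal libraries were the lowest and Sca-1- luminal libraries the highest, with no overlap with the groups between them, and the change was -2.74 ± 0.24 (SE, adjusted p = 4.02e-05). Dhcr7 (chromosome 7, 143823145 to 143848410), the reductase of the last step, had 0.498 and 0.355 FPKM in stromal, 0.643 and 0.201 FPKM in basal, 1.27, 1.89 and 1.93 FPKM in Sca-1+ luminal and 5.43, 4.14 and 5.13 FPKM in Sca-1- luminal libraries, a basal against Sca-1- luminal change of -2.06 ± 0.24 (SE, adjusted p = 0.000163). It was under 1 FPKM in all 4 stromal and basal libraries. Nsdhl (chromosome X, 72918557 to 72958514), a dehydrogenase of sterol demethylation, had 2.12 and 4.23 FPKM in stromal, 2.19 and 2.42 FPKM in basal, 3.55, 4.44 and 7.24 FPKM in Sca-1+ luminal and 5.42, 5.76 and 6.27 FPKM in Sca-1- luminal libraries, with a change of -1.04 ± 0.31 (SE, adjusted p = 0.0217). Its basal and Sca-1- luminal libraries did not overlap, whereas the Sca-1+ luminal libraries ran from between these groups to above both.

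Tm7sf2 (chromosome 19, 6062821 to 6068373), a sterol reductase that acts beside Cyp51, was at 0 in all 7 stromal, basal and Sca-1+ luminal libraries. The Sca-1- luminal libraries had 10.7, 6.91 and 7.92 FPKM of it. Its locus overlaps a transcript of Vps51. That transcript stood at 5.61 and 7.75 FPKM in stromal and 9.26 and 7.85 FPKM in basal libraries. It had 10.4, 9.25 and 16.4 FPKM in Sca-1+ luminal and 17.0, 14.1 and 17.2 FPKM in Sca-1- luminal libraries. For that transcript Sca-1+ luminal replicate 3 lay within the Sca-1- luminal range. Summed over all its transcripts, Vps51 had 16.4 FPKM in Sca-1+ luminal replicate 3 and 17.0, 24.2 and 28.3 FPKM in Sca-1- luminal libraries. How fragments were shared between these genes was not tested, so no fold is given for Tm7sf2 and its calls are uncertain.

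The calls that were lower in basal libraries held up better against leaving out a library than those that were higher. The calls of Mvk, Ebp, Dhcr7, Scd2, Hsd17b7 and Fads2 held in all 10 fits that left out 1 library. So did the uncertain call of Tm7sf2, but with both basal libraries at 0, leaving out either could not move its basal mean. Without basal replicate 1, which had the higher values of Hmgcs1, Idi1, Cyp51 and Msmo1, 8 genes were called (2 higher, Hsd17b7 and Fads2, and 6 lower), and without basal replicate 2, 10 were called (5 higher and 5 lower). Over the 10 fits that left out 1 library, Hmgcs1 and Fdps were called in 9, Srebf2 in 8, Nsdhl in 7, Idi1, Cyp51, Fads1 and Fasn in 6 and Msmo1 in 2.

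**Figure D2:**
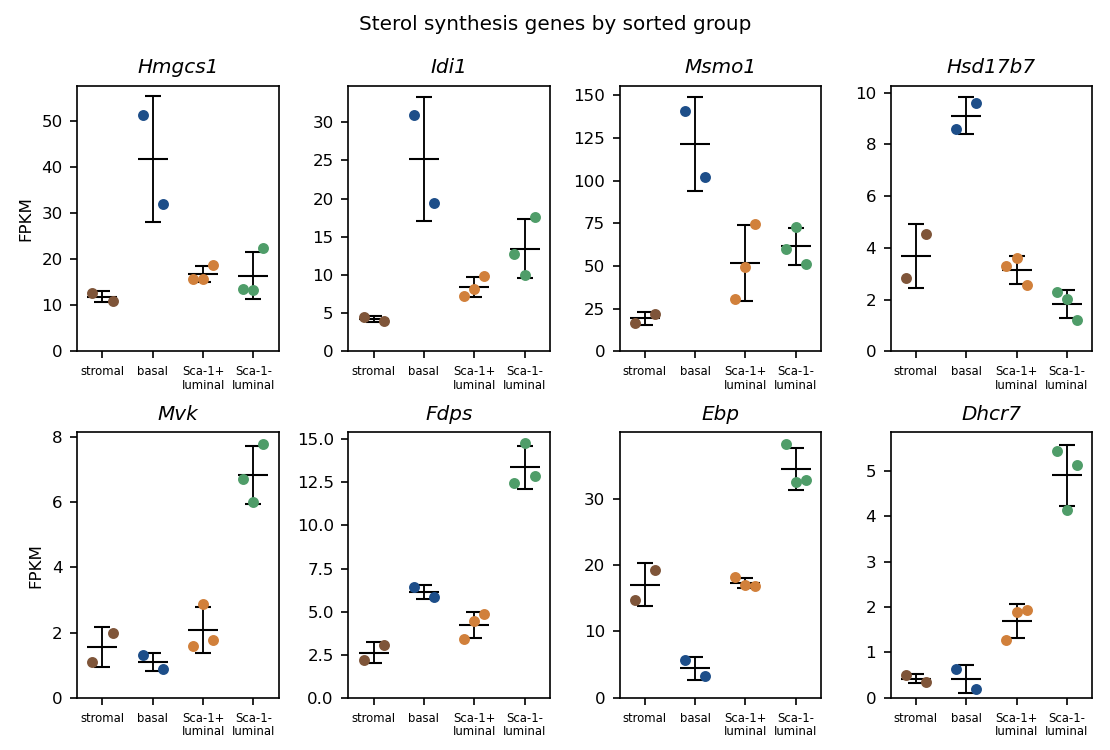
FPKM of 8 sterol synthesis genes in each library (points), with the mean and SD of each group (bars; n = 2 stromal, 2 basal, 3 Sca-1+ luminal and 3 Sca-1- luminal). The upper genes are highest in basal libraries, such as Hsd17b7 at 8.60 and 9.61 FPKM, and the lower genes are highest in Sca-1- luminal libraries, such as Fdps at 12.5 to 14.8 FPKM.

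Promoters of 2 genes that were higher and 2 that were lower in basal libraries are shown because genes of both directions are known SREBP targets. RefSeq promoters (build GRCm38.p6, the assembly of mm10) were found for 27 of the 34 genes, as 250 bases before to 50 bases after the start. The letters TCACNCCAC of a sterol regulatory element, CCAAT of the NF-Y box and CACGTG of the E-box were sought on both strands. The 250 bases before the start follow, 5′ to 3′ on the gene's strand, with matches in capitals (ATTGG is CCAAT on the other strand); no matches overlap.
Hmgcs1, chr13:119690101-119690350, plus strand: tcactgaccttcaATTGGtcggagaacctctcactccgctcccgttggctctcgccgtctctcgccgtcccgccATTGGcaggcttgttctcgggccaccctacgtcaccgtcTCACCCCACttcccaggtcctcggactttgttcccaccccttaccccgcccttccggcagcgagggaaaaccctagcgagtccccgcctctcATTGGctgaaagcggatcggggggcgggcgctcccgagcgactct
Hsd17b7, chr1:169969206-169969455, minus strand: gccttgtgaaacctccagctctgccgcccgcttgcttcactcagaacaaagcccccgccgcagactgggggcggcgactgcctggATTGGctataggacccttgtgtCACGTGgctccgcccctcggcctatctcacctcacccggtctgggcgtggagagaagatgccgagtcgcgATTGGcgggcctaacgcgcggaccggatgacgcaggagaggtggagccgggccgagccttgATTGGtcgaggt
Ebp, chrX:8193513-8193762, minus strand: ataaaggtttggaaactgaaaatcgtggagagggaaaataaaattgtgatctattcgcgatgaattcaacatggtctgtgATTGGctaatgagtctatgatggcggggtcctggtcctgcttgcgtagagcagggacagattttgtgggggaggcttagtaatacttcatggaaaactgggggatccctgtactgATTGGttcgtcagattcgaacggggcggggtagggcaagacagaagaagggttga
Mvk, chr5:114444019-114444268, plus strand: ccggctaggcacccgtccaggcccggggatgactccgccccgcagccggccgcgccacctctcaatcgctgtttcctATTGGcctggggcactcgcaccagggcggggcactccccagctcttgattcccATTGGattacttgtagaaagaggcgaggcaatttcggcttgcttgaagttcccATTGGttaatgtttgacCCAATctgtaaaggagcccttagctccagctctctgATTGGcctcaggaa

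Among the 27 promoters the sterol regulatory element letters were in 1 (Hmgcs1, at positions -137 to -129 relative to the start), against 1.44% of the 27025 promoters in the RefSeq table. The NF-Y box letters were in 21 (77.8%), against 41.1% of all promoters, and the E-box letters in 7 (25.9%), against 8.09%. The NF-Y box letters did not separate the directions: 7 of the 8 promoters of genes higher in basal than in Sca-1- luminal libraries held them, and so did 5 of the 5 promoters of genes that were lower. A match of letters is a description of the sequence and not a measured binding site.

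Sca-1+ luminal cells were set against Sca-1- luminal cells to ask what sets the Sca-1 fraction of the luminal gate apart. The sterol genes with a call were lower in cells with Sca-1. Of the 17 enzymes of the mevalonate and sterol steps, 7 were called lower (Mvk, Mvd, Fdps, Lss, Tm7sf2, Ebp and Dhcr7) and 0 higher. The call of Tm7sf2, which passed the filter only through the Sca-1- luminal libraries, is uncertain. Of the other 17 genes, 1 was called lower (Scd2) and 0 higher. In all 8 of 34 (23.5%) were called, against 35.1% of all genes tested, with 0 higher (21.8% of all genes) and 8 lower (13.3%). At an unadjusted limma p under 0.05, 6 were higher and 10 lower. The share of all genes at that threshold is not given here, so these counts cannot be set against it. The median log2 change was 0.06 for the 34 genes (0.11 without Tm7sf2 and Fdft1) and 0.19 for all genes tested.

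The change of Fdps was -1.46 ± 0.21 (SE, adjusted p = 0.00136), of Mvk -1.36 ± 0.24 (SE, adjusted p = 0.00364), of Dhcr7 -1.13 ± 0.22 (SE, adjusted p = 0.00474) and of Ebp -0.95 ± 0.22 (SE, adjusted p = 0.0101). Mvd (chromosome 8, 122433601 to 122443422), the decarboxylase that makes isopentenyl diphosphate, had 2.46 and 3.36 FPKM in stromal, 12.8 and 14.5 FPKM in basal, 4.39, 2.92 and 3.61 FPKM in Sca-1+ luminal and 10.8, 7.46 and 8.34 FPKM in Sca-1- luminal libraries. Its Sca-1+ and Sca-1- luminal libraries did not overlap, and the change was -1.09 ± 0.23 (SE, adjusted p = 0.00666). Lss (chromosome 10, 76531588 to 76557138), which closes the sterol rings, had 0.345 and 0.531 FPKM in stromal, 4.24 and 3.53 FPKM in basal, 1.50, 2.08 and 2.35 FPKM in Sca-1+ luminal and 3.12, 3.56 and 3.90 FPKM in Sca-1- luminal libraries. Its change of -0.61 ± 0.20 (SE, adjusted p = 0.0432) was past the threshold in 1 of the 10 fits that left out 1 library.

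The Sca-1+ luminal libraries did not behave alike for several genes, among them some of fatty acid desaturation, activation and sterol export. In replicates 1, 2 and 3 of this gate, Fads1 stood at 9.47, 8.34 and 0.851 FPKM, Abca1 at 9.36, 4.39 and 1.52 FPKM, and Scd1 at 147, 74.7 and 8.76 FPKM. Replicate 3 was the lowest for all 3 genes and lay within or below the range of the Sca-1- luminal libraries. It was also the library of its gate with the lowest fibroblast marker sum (357 FPKM, against 5134 and 2531 FPKM in replicates 1 and 2). Not all desaturases followed: Scd2 had 45.8, 31.7 and 33.4 FPKM in replicates 1, 2 and 3. Some sterol genes were highest in replicate 3, such as Sqle (36.2, 24.7 and 62.9 FPKM) and Msmo1 (30.7, 49.7 and 74.8 FPKM). Without replicate 3, 13 genes were called, 5 of them higher (Scd1, Fads1, Fads2, Acsl4 and Abca1) and 8 lower. Over all genes, the fits that left out 1 library gave 2707 to 5196 calls, against 4370 with all libraries. With replicate 3 as the only library of its gate, 5 were called, all lower: Mvk, Mvd, Fdps, Tm7sf2 and Scd1. Ebp and Dhcr7, also lower with all libraries, had adjusted p-values of 0.0767 and 0.0501 in that fit. Replicate 3 also had the highest proximal luminal marker sum of its gate (4834 FPKM, against 780 and 2083 FPKM in replicates 1 and 2). The part of fibroblast or other RNA in these differences was not tested.

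Scaling the libraries to a common median of ratios, or quantile normalization, moved the median of all genes in this comparison by -0.17 and -0.26 and changed the share of all calls that were higher to 46.4% and 40.4%, against 62.1% with FPKM as deposited. Under each of the 2 scalings 11 of the 34 genes were called lower and 0 higher, and the median of the 34 genes turned negative (-0.14 and -0.18).

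**Figure D3:**
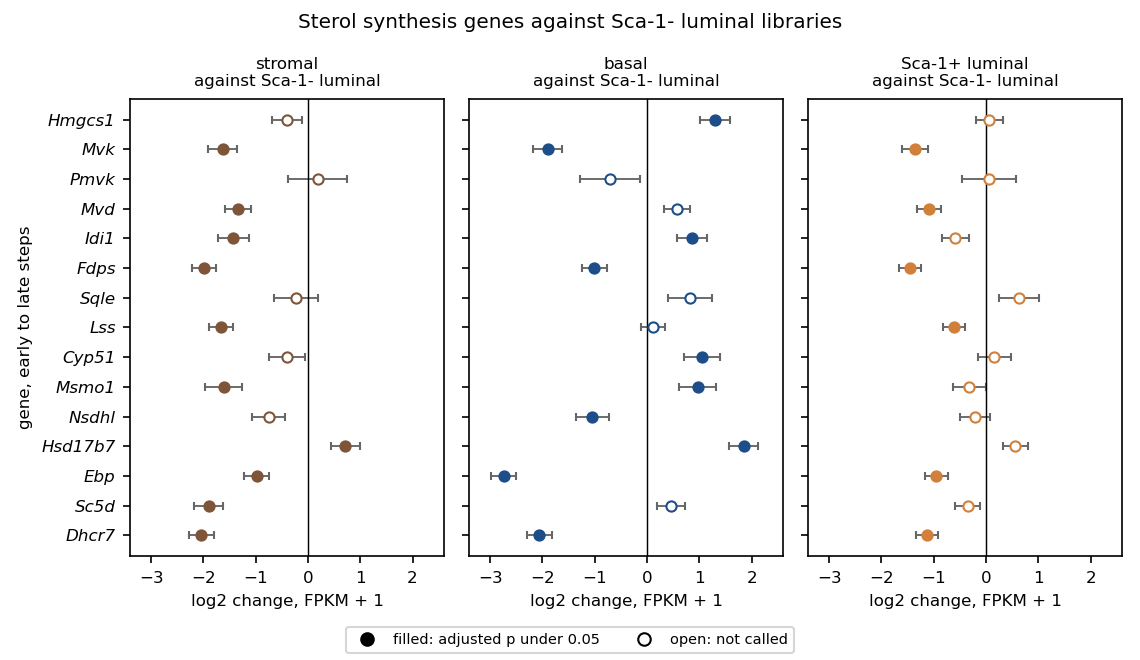
The log2 change (FPKM + 1) with its SE for the 15 sterol synthesis genes never listed at 0, in pathway order, for stromal, basal and Sca-1+ luminal libraries against Sca-1- luminal libraries. Filled points had a limma adjusted p under 0.05: of these genes 9 are lower and Hsd17b7 is higher in stromal libraries, 5 are higher and 5 lower in basal libraries, and 6 are lower in Sca-1+ luminal libraries.

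Stromal cells set against Sca-1- luminal cells gave more calls than the other 5 comparisons. Of the 17 sterol enzymes, 11 were lower and 1 (Hsd17b7) was higher. Of the other 17 genes, 8 were higher (Acly, Elovl1, Elovl5, Elovl6, Fads1, Fads2, Acsl4 and Abca1) and 2 lower (Scap and Scd2). In all 22 of 34 (64.7%) were called, against 52.6% of all genes tested, with 9 higher (25.2% of all genes) and 13 lower (27.4%). The median log2 change was -0.28 (-0.12 without Tm7sf2 and Fdft1), against -0.06 for all genes. The 11 calls that held in every fit that left out 1 library were all lower: Mvk, Mvd, Idi1, Fdps, Fdft1, Lss, Tm7sf2, Msmo1, Sc5d, Dhcr7 and Scd2. Fdft1 and Tm7sf2 were listed at 0 in both stromal libraries, so leaving out either could not move their stromal means, and their calls are uncertain. Over the fits that left out 1 library, 15 to 24 of the 34 genes were called. Without stromal replicate 2 the higher calls were 2 (Acly and Abca1), against 9 with all libraries. Hsd17b7, the sterol gene called higher, had a change of 0.72 ± 0.27 (SE, adjusted p = 0.0496) and was called in 2 of them.

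Among the sterol enzymes the stromal against Sca-1- luminal change was -2.04 ± 0.24 for Dhcr7 (SE, adjusted p = 0.000193), -1.99 ± 0.23 for Fdps (SE, adjusted p = 0.000187), -1.65 ± 0.23 for Lss (SE, adjusted p = 0.000422) and -1.61 ± 0.36 for Msmo1 (SE, adjusted p = 0.00432). Sc5d (chromosome 9, 42251595 to 42264256), the desaturase that precedes Dhcr7, had 7.97 and 7.41 FPKM in stromal, 51.7 and 36.9 FPKM in basal, 20.3, 25.1 and 28.7 FPKM in Sca-1+ luminal and 40.7, 31.9 and 23.9 FPKM in Sca-1- luminal libraries. Stromal libraries were the lowest of the 10, and the change was -1.90 ± 0.27 (SE, adjusted p = 0.000502).

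Fdft1 (chromosome 14, 63145150 to 63179578), squalene synthase, was listed at 0 in both stromal libraries and in Sca-1+ luminal replicate 1. It had 24.7 and 25.2 FPKM in basal libraries, 15.3 and 13.0 FPKM in replicates 2 and 3 of the Sca-1+ luminal gate, and 21.5, 26.2 and 12.8 FPKM in Sca-1- luminal libraries. A transcript of Ctsb, a lysosomal protease gene, overlaps its locus, and the 3 libraries with Fdft1 at 0 were those with that transcript highest, at 144 and 153 FPKM in stromal libraries and 151 FPKM in Sca-1+ luminal replicate 1, against 31.3 to 97.4 FPKM in the other 7. The part of the overlap in the zeros was not tested; no fold is given for Fdft1, and its calls are uncertain.

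Stromal cells were also set against basal cells. Most sterol enzymes with a call were lower in stromal libraries, and most fatty acid genes with a call were higher. Of the 17 sterol enzymes, 10 were lower in stromal libraries (Hmgcs1, Mvd, Idi1, Fdps, Fdft1, Lss, Cyp51, Msmo1, Hsd17b7 and Sc5d) and 1 was higher (Ebp). Of the other 17 genes, 4 were higher (Acly, Scd1, Elovl5 and Abca1) and 1 lower (Srebf2). In all 16 of 34 (47.1%) were called, against 22.6% of all genes tested, with 5 higher (13.5% of all genes) and 11 lower (9.13%). The median log2 change was -0.07 (-0.06 without Tm7sf2 and Fdft1), against 0.02 for all genes.

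The stromal against basal change was -2.58 ± 0.39 for Msmo1 (SE, adjusted p = 0.00223), -2.36 ± 0.30 for Sc5d (SE, adjusted p = 0.00121), -2.28 ± 0.32 for Idi1 (SE, adjusted p = 0.00169), -1.91 ± 0.28 for Mvd (SE, adjusted p = 0.0019) and -1.76 ± 0.25 for Lss (SE, adjusted p = 0.00179). Ebp changed by 1.76 ± 0.27 (SE, adjusted p = 0.00224). These 6 calls held in all 10 fits that left out 1 library. Fewer of the 34 genes were called without 1 of the 4 libraries compared: 7 without stromal replicate 1, 9 without stromal replicate 2, 8 without basal replicate 1 and 8 without basal replicate 2. Over all genes the calls fell to 1156 to 1485 without 1 of these libraries, against 2814 with all of them.

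Fatty acid genes had no single pattern across the groups. Acly (chromosome 11, 100476353 to 100528000), which makes cytosolic acetyl-CoA from citrate, had 103 and 60.7 FPKM in stromal, 30.8 and 12.3 FPKM in basal, 96.2, 32.0 and 32.3 FPKM in Sca-1+ luminal and 27.1, 21.6 and 28.1 FPKM in Sca-1- luminal libraries. Its stromal libraries lay above all basal and Sca-1- luminal libraries, with changes of 1.96 ± 0.57 against basal (SE, adjusted p = 0.0339) and 1.60 ± 0.52 against Sca-1- luminal libraries (SE, adjusted p = 0.0262). The first call was lost without either stromal library, basal replicate 2, or replicate 1 or 2 of the Sca-1- luminal gate, and the second without stromal replicate 1 or any 1 Sca-1- luminal library. Fasn, the fatty acid synthase, had 5.37 to 15.4 FPKM over the 10 libraries and was called in 1 comparison, higher in basal than in Sca-1- luminal libraries by 0.89 ± 0.31 (SE, adjusted p = 0.0411); this call was lost without basal replicate 1, basal replicate 2, or replicate 2 or 3 of the Sca-1- luminal gate. Acaca, acetyl-CoA carboxylase, stood at 0.372 to 1.69 FPKM and was called in no comparison. The highest value, in Sca-1+ luminal replicate 2, includes 1.16 FPKM of an 889-nt transcript at 0 in every other library. A 3316-nt transcript on the Acaca locus, at up to 1.26 FPKM, was placed on no gene and is not in the sum.

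The stearoyl-CoA desaturases Scd1 and Scd2, which make monounsaturated fatty acids and lie 87.6 kb apart on chromosome 19, were high in different groups. Scd2 (chromosome 19, 44293674 to 44306864) stood at 18.6 and 15.4 FPKM in stromal, 15.9 and 6.30 FPKM in basal, 45.8, 31.7 and 33.4 FPKM in Sca-1+ luminal and 92.2, 50.3 and 108 FPKM in Sca-1- luminal libraries. Sca-1- luminal libraries were the highest, Sca-1+ luminal libraries came next without overlap, and stromal and basal libraries were the lowest and overlapped; the change against Sca-1- luminal libraries was -2.17 ± 0.41 in stromal (SE, adjusted p = 0.00199), -2.86 ± 0.41 in basal (SE, adjusted p = 0.00049) and -1.10 ± 0.37 in Sca-1+ luminal libraries (SE, adjusted p = 0.0417). The last of these was past the threshold in 4 of the 10 fits that left out 1 library. Scd1 (chromosome 19, 44394455 to 44407879) had 64.0 and 73.1 FPKM in stromal, 9.36 and 5.96 FPKM in basal, 147, 74.7 and 8.76 FPKM in Sca-1+ luminal and 35.3, 31.2 and 42.3 FPKM in Sca-1- luminal libraries. Basal libraries and Sca-1+ luminal replicate 3 were the low ones, and the call was stromal against basal, at 3.03 ± 0.97 (SE, adjusted p = 0.0494), past the threshold in 2 of the 10 fits.

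Fads1 and Fads2, the desaturases of polyunsaturated fatty acids, lie 81.1 kb apart on the same chromosome and were low in the same libraries. Fads1 (chromosome 19, 10182888 to 10196877) had 10.2 and 13.2 FPKM in stromal, 9.13 and 6.78 FPKM in basal, 9.47, 8.34 and 0.851 FPKM in Sca-1+ luminal and 0.872, 0.658 and 1.79 FPKM in Sca-1- luminal libraries. Fads2 (chromosome 19, 10062765 to 10101746) had 9.20 and 11.8 FPKM in stromal, 15.3 and 14.2 FPKM in basal, 9.71, 6.15 and 2.24 FPKM in Sca-1+ luminal and 2.53, 1.36 and 3.10 FPKM in Sca-1- luminal libraries. The stromal and basal libraries and Sca-1+ luminal replicates 1 and 2 were all above the Sca-1- luminal libraries, while Sca-1+ luminal replicate 3 lay among them. Fads2 was higher by 1.82 ± 0.45 in stromal (SE, adjusted p = 0.00797) and 2.28 ± 0.45 in basal libraries (SE, adjusted p = 0.00291) than in Sca-1- luminal libraries, and Fads1 by 2.62 ± 0.65 in stromal (SE, adjusted p = 0.00747) and 2.11 ± 0.65 in basal libraries (SE, adjusted p = 0.0231). The stromal calls were lost without stromal replicate 2, with highest adjusted p-values over all alternatives of 0.0512 for Fads1 and 0.0566 for Fads2.

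Few comparisons called the elongases. Elovl1 (chromosome 4, 118428093 to 118432953), which extends very long saturated chains and had the highest mean FPKM of its role, stood at 107 and 170 FPKM in stromal, 86.4 and 92.2 FPKM in basal, 123, 109 and 96.2 FPKM in Sca-1+ luminal and 61.3, 91.4 and 32.8 FPKM in Sca-1- luminal libraries. It was called in 1 comparison, stromal against Sca-1- luminal, at 1.23 ± 0.39 (SE, adjusted p = 0.0236), and not without stromal replicate 2 or Sca-1- luminal replicate 3. Elovl5 (chromosome 9, 77917364 to 77984519), which extends polyunsaturated chains, had 24.8 and 30.7 FPKM in stromal, 16.0 and 8.67 FPKM in basal, 27.3, 24.3 and 25.2 FPKM in Sca-1+ luminal and 17.1, 12.6 and 19.0 FPKM in Sca-1- luminal libraries. Its stromal and Sca-1+ luminal libraries lay above all basal and Sca-1- luminal libraries, and the stromal against basal change was 1.15 ± 0.31 (SE, adjusted p = 0.0243), lost without basal replicate 2 or either stromal library. Elovl6, which extends saturated chains, stood at 0.264 to 2.22 FPKM in all libraries and was higher in stromal libraries than in those of the Sca-1- luminal gate by 0.80 ± 0.30 (SE, adjusted p = 0.0451), a call made in 3 of the 10 fits that left out 1 library.

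**Figure D4:**
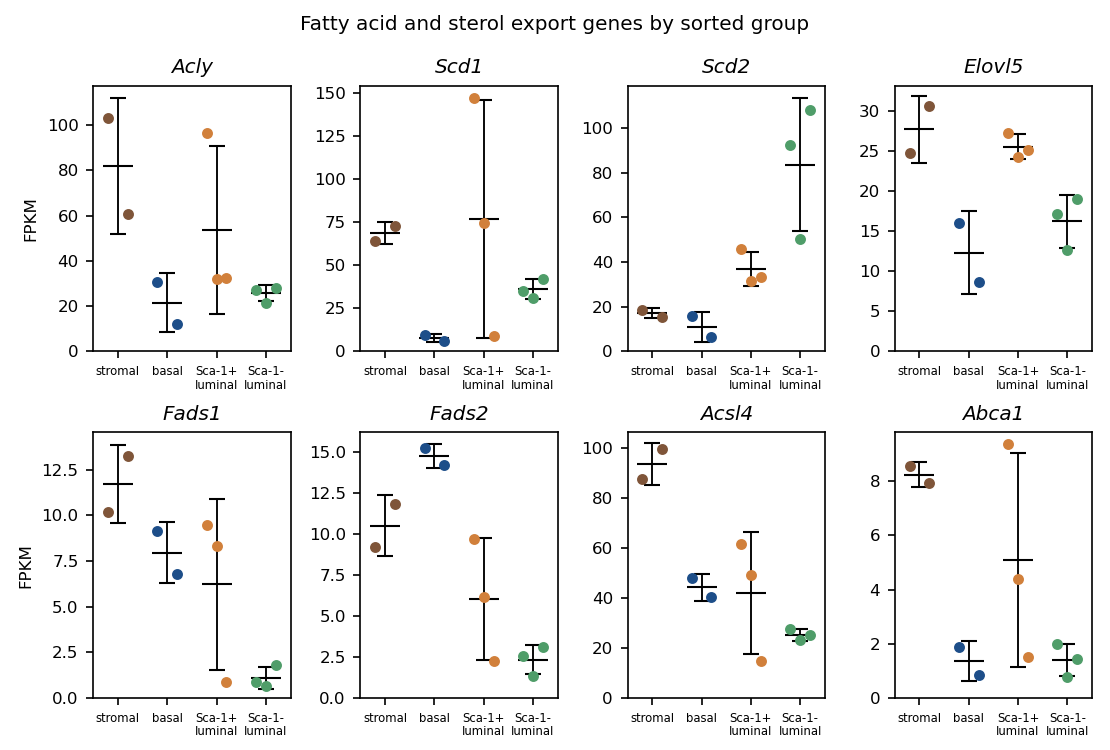
FPKM of 8 fatty acid and sterol export genes in each library (points), with the mean and SD of each group (bars; n = 2 stromal, 2 basal, 3 Sca-1+ luminal and 3 Sca-1- luminal). Sca-1+ luminal replicate 3 is the lowest of its group for Scd1, Fads1, Fads2, Acsl4 and Abca1, such as Fads1 at 0.851 FPKM against 9.47 and 8.34 FPKM. For Acly it is replicate 1 that stands apart, at 96.2 FPKM against 32.0 and 32.3 FPKM.

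Acsl4 (chromosome X, 142317993 to 142390535), which activates arachidonic acid for membrane lipids, had 87.5 and 99.3 FPKM in stromal, 48.0 and 40.4 FPKM in basal, 61.7, 49.3 and 14.9 FPKM in Sca-1+ luminal and 27.6, 23.0 and 25.1 FPKM in Sca-1- luminal libraries. The stromal libraries were the highest of the 10, and the change against Sca-1- luminal libraries was 1.85 ± 0.48 (SE, adjusted p = 0.00996), lost without stromal replicate 2. The level is a sum over 3 transcripts of similar length with the same ends. The transcript of 5280 nt made up 52.1% to 53.8% of the gene's FPKM in stromal, 12.5% to 15.7% in basal and 13.2% to 40.9% in Sca-1+ luminal libraries, and was at 0 in all 3 libraries of the Sca-1- luminal gate. How well the authors' estimates separate transcripts that share most of their length was not tested.

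**Figure D5:**
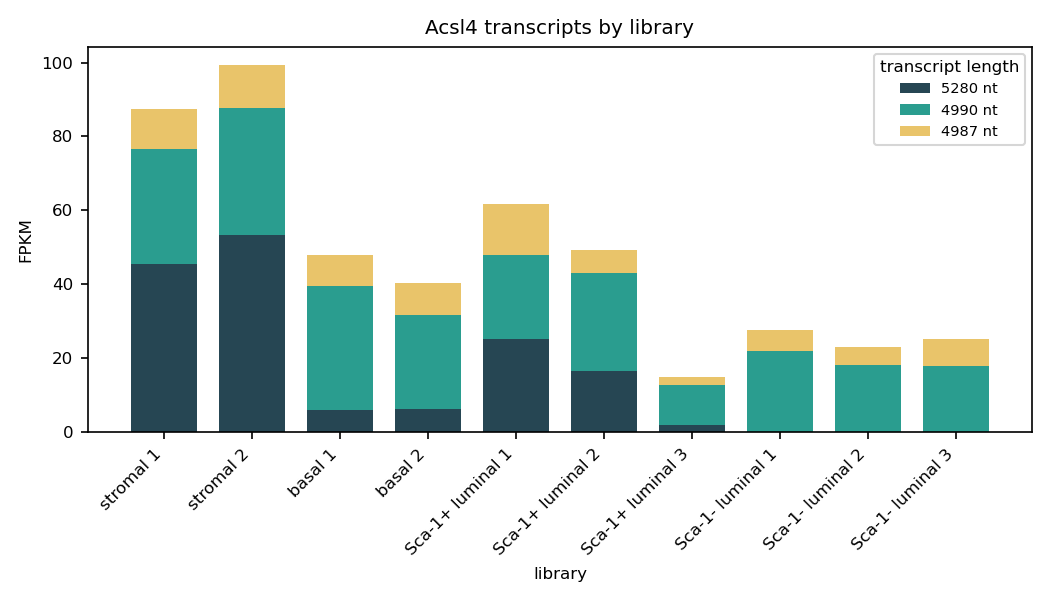
FPKM of the 3 detected Acsl4 transcripts, stacked, in each library. The 5280-nt transcript stands at 45.6 and 53.4 FPKM in stromal libraries and at 0 in all 3 Sca-1- luminal libraries.

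Abca1 (chromosome 4, 53030787 to 53159895), the transporter that passes cholesterol to apolipoproteins outside the cell, had 8.58 and 7.92 FPKM in stromal, 1.90 and 0.855 FPKM in basal, 9.36, 4.39 and 1.52 FPKM in Sca-1+ luminal and 1.99, 0.783 and 1.44 FPKM in Sca-1- luminal libraries. Stromal libraries lay above all basal and Sca-1- luminal libraries, with changes of 2.0 ± 0.56 against basal (SE, adjusted p = 0.0298) and 1.97 ± 0.51 against Sca-1- luminal libraries (SE, adjusted p = 0.0096); the first was lost without any 1 of the 4 libraries compared, and the second without stromal replicate 1. Stard4, which carries cholesterol between membranes, ranged over 0.727 to 6.86 FPKM and was called once, higher in basal than in Sca-1+ luminal libraries by 1.46 ± 0.35 (SE, adjusted p = 0.0179), not without either basal library.

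Among the 4 control genes, Srebf2 and Scap were called. Srebf2 (chromosome 15, 82147181 to 82205379), which encodes the SREBP that acts mainly on sterol genes, had the highest mean FPKM of them, with 21.0 and 26.4 FPKM in stromal, 39.3 and 37.3 FPKM in basal, 27.9, 32.5 and 33.4 FPKM in Sca-1+ luminal and 24.9, 23.7 and 22.8 FPKM in Sca-1- luminal libraries. Basal libraries were the highest of the 10, by 0.66 ± 0.20 over Sca-1- luminal libraries (SE, adjusted p = 0.0205), a call lost without either basal library. Stromal libraries were lower than basal ones by -0.68 ± 0.22 (SE, adjusted p = 0.0494), past the threshold in 2 of the 10 fits. Scap ranged over 7.55 to 19.4 FPKM and was called lower in stromal libraries than in those of the Sca-1- luminal gate, by -0.97 ± 0.26 (SE, adjusted p = 0.0104), lost without stromal replicate 2. Srebf1, whose product acts mainly on fatty acid genes, stood at 14.4 to 36.6 FPKM and Insig1 at 5.13 to 15.5 FPKM, and neither was called in any comparison. The other enzymes without a call were Pmvk, at 7.47 to 34.1 FPKM, and Sqle, the squalene epoxidase, at 15.9 to 62.9 FPKM.

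Basal cells set against Sca-1+ luminal cells again had sterol genes on both sides: of the 17 enzymes 5 were higher (Hmgcs1, Mvd, Idi1, Msmo1 and Hsd17b7) and 2 lower (Ebp and Dhcr7). Stard4 was higher, and Scd2 and Elovl5 were lower. In all 10 of 34 (29.4%) were called, against 19.8% of all genes tested, with 6 higher (4.38% of all genes) and 4 lower (15.5%). The median log2 change was 0.32, against -0.29 for all genes. Mvd rose by 1.67 ± 0.25 (SE, adjusted p = 0.00259) and Ebp changed by -1.79 ± 0.24 (SE, adjusted p = 0.00169), the 2 calls that held in all 10 fits that left out 1 library. Fewer of the 34 genes were called without either basal library, which leaves 1 in that group. Dropping replicate 2 of the Sca-1+ gate gave 4 higher and 2 lower calls. Dropping its replicate 3 instead gave 9 higher and 6 lower, with Scd1 among the lower. Scd1 had 8.76 FPKM in replicate 3, between the basal values, and 147 and 74.7 FPKM in replicates 1 and 2. Replicate 3 lay below both basal libraries for Insig1, Fads1, Fads2 and Acsl4, among others. It lay above both for Nsdhl, Ebp, Dhcr7, Scd2 and Elovl5, among others. Median-of-ratios scaling and quantile normalization moved the median of all genes by 0.27 and 0.37, and then 12 of the 34 genes were higher under each, with 3 and 2 lower; of all calls 47.3% and 53.1% were higher, against 22.1% with FPKM as deposited.

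Stromal cells set against Sca-1+ luminal cells gave the fewest calls: 4 of 34 (11.8%), against 13.5% of all genes tested. None of the 34 was higher by limma (1.82% of all genes), and Lss, Msmo1, Sc5d and Dhcr7 were lower (11.7%). At an unadjusted limma p under 0.05, 2 were higher and 8 lower, with no share of all genes at that threshold given here. The median log2 change was -0.14, against -0.16 for all genes. Sc5d had the largest of these changes, -1.55 ± 0.27 (SE, adjusted p = 0.00579), and none of the 4 calls held in every fit. Over the fits that left out 1 library 0 (without stromal replicate 1) to 7 (without Sca-1+ luminal replicate 1) genes were called. Sca-1+ luminal replicate 3 was the library of its gate with the lowest fibroblast marker sum. It lay below both stromal libraries for Insig1, Scd1, Fads1, Fads2, Acsl4, Abca1 and Stard4, among others, such as Fads1 at 0.851 FPKM against 10.2 and 13.2 FPKM. For Sqle, Lss, Msmo1, Sc5d and Dhcr7, among others, it lay above both, such as Sc5d at 28.7 FPKM against 7.97 and 7.41 FPKM. Median-of-ratios scaling and quantile normalization moved the median of all genes by 0.23 and 0.22, and the share of all calls that were higher was 33.1% and 37.8%, against 13.5% with FPKM as deposited; 2 of the 34 genes were called under the first (Lss and Sc5d, both lower) and 2 under the second (Sc5d lower and Stard4 higher).

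Genes of the same pathways outside the 34 were read from a list of 44, of which 36 passed the filter. In basal against Sca-1- luminal libraries, 7 of the 36 were higher (20.2% of all genes tested) and 8 lower (26.0%). These counts were close to the shares of all genes. Among the higher, the elongase Elovl7 changed by 2.28 ± 0.43 (SE, adjusted p = 0.00218). Lower were Npc2, which moves cholesterol out of lysosomes, by -2.88 ± 0.29 (SE, adjusted p = 7.82e-05) and the acyl-CoA synthetase Acsl1 by -2.51 ± 0.34 (SE, adjusted p = 0.000338). These 3 calls held in all 10 fits that left out 1 library.

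In stromal against basal libraries, 8 of the 36 were higher (13.5% of all genes tested) and 5 lower (9.13%). Elovl7 had 0.427 and 1.10 FPKM in stromal and 40.7 and 54.4 FPKM in basal libraries, a change of -4.80 ± 0.47 (SE, adjusted p = 0.000361). Among the 8 that were higher in stromal libraries, Cyp27a1, a sterol hydroxylase, had 54.3 and 48.9 FPKM in stromal and 4.49 and 3.38 FPKM in basal libraries (3.42 ± 0.35, SE, adjusted p = 0.000397), the lysosomal lipase Lipa changed by 2.46 ± 0.51 (SE, adjusted p = 0.00813), and the oxysterol receptor gene Nr1h3 by 2.39 ± 0.55 (SE, adjusted p = 0.0132). The calls of Elovl7 and Cyp27a1 held in all 10 fits. That of Lipa was lost without stromal replicate 1 or basal replicate 2, and that of Nr1h3 without stromal replicate 2 or either basal library.

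In Sca-1+ against Sca-1- luminal libraries, 6 of the 36 were higher (21.8% of all genes tested) and 2 lower (13.3%). For stromal against Sca-1- luminal libraries, 12 were higher (25.2% of all genes) and 9 lower (27.4%). For basal against Sca-1+ luminal libraries, 3 were higher (4.38%) and 6 lower (15.5%). For stromal against Sca-1+ luminal libraries, 2 were higher (1.82%) and 3 lower (11.7%). The comparisons share libraries and are not independent of each other.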

How the data were processed

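RNA of 10 libraries was primed with random and poly(dT) primers and sequenced on an Illumina HiSeq, per the labels' protocols. Per the submitters' processing notes, bcl2fastq 1.8.3, TopHat and Cufflinks were used with genome build mm10, the last 2 tools with no version given in the sources used here. The deposited values are FPKM (fragments per kilobase of transcript, scaled by the authors to mapped fragments) for 63241 transcripts per library, per the file headers. The deposited coverage signal was not used. Whether strand was kept is not stated, so overlapping genes are uncertain.

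Transcripts were placed on genes by their mm10 coordinates with GENCODE release M21 and RefSeq GRCm38.p6 (53669 placed, 84.9%; 8006 under 300 nt left out), and FPKM was summed per gene. All 74 transcripts of the 34 genes matched at least 1 exact end. For 7 other genes an estimate had failed, and they were left out. Depth was read from transcripts whose low FPKM values fell on steps of 1 fragment, with 87.7% to 91.4% of low values within 0.1 of a whole number; fragment counts behind single values are estimates from this. Precision is limited by these fragments and by 2 or 3 libraries a group.

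Groups follow the gate in the labels, which carry no replicate numbers, so libraries are numbered in listed order. Separate animals are not stated, so p-values measure the spread between these libraries, which may be technical. Tests used limma 3.58.1 (R 4.3.3) on log2(FPKM + 1), the pseudocount being 1, for the 12435 genes that reached 1 FPKM in 2 or more libraries, in 1 fit of all 10 libraries with a mean per group (6 residual degrees of freedom, trended variance). All 6 comparisons among the 4 groups were made, each adjusted by Benjamini-Hochberg over all genes tested, and a gene was called at an adjusted p under 0.05. The script was tested on simulated data. Alternatives were a pseudocount of 0.1, no filter, a filter at 5 FPKM, median-of-ratios scaling, quantile normalization, libraries of the 2 groups only, transcripts placed by an exact end only, each library left out, and Sca-1+ luminal replicate 3 as the only library of its gate.

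The 34 genes, the 44 companion genes, the markers and the motifs were chosen with earlier results of these data known, and so support nothing independently. Values in every library are given for up to 6 called genes with the largest change in each direction of 3 comparisons (basal against Sca-1- luminal, Sca-1+ against Sca-1- luminal, stromal against basal) and for the gene of highest mean in each role; of the companions, up to 4 per direction may be named, some of which are not reported here. Sequences are from RefSeq.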

Additional observations from a re-analysis of the deposited data

Results flagged for a closer look

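A transcript of 386 nt inside the Fads2 locus (chromosome 19, 10063632 to 10064017, mm10) was placed on no gene and so entered no comparison, yet it had signal above the value of 3 fragments in all 10 libraries. It stood at 9.95 and 11.4 FPKM in stromal, 13.7 and 7.43 FPKM in basal, 10.5, 4.58 and 1.32 FPKM in Sca-1+ luminal and 1.65, 1.69 and 1.50 FPKM in Sca-1- luminal libraries. Its highest value was 13.7 FPKM. The Sca-1- luminal libraries and Sca-1+ luminal replicate 3 were the lowest, as they were for Fads2 itself. Whether its fragments belong to Fads2 was not tested.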

How the results depend on the processing

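No paired analysis was made, because the labels give the libraries neither a pairing nor replicate numbers. Listed order was not used as a block, so a shift shared by libraries listed near each other was not tested. Counts of the 34 genes called ranged, over the fits that left out 1 library, over 6 to 13 for Sca-1+ against Sca-1- luminal, 8 to 20 for basal against Sca-1- luminal, 4 to 15 for basal against Sca-1+ luminal, 15 to 24 for stromal against Sca-1- luminal, 7 to 17 for stromal against basal and 0 to 7 for stromal against Sca-1+ luminal. With Sca-1+ luminal replicate 3 as the only library of its gate, the count was 5 for Sca-1+ against Sca-1- luminal and 13 for stromal against Sca-1+ luminal. For stromal against Sca-1+ luminal it was 2 with a filter at 5 FPKM, 2 with median-of-ratios scaling, 2 with no filter on low values, 2 with quantile normalization and 1 with libraries of the 2 groups only. The cause was not tested.

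Over all genes, leaving out 1 library gave 2707 to 5196 calls for Sca-1+ against Sca-1- luminal (4370 with all libraries), 3696 to 6421 for basal against Sca-1- luminal (5741), 591 to 3570 for basal against Sca-1+ luminal (2468), 4341 to 7069 for stromal against Sca-1- luminal (6544), 1156 to 3581 for stromal against basal (2814) and 378 to 3048 for stromal against Sca-1+ luminal (1675). With the libraries of the 2 groups only, the count was 787 for stromal against Sca-1+ luminal and 1464 for basal against Sca-1+ luminal. With replicate 3 as the only Sca-1+ luminal library it was 3790 for stromal against Sca-1+ luminal and 2006 for Sca-1+ against Sca-1- luminal. Of 2524 values of single called genes under an alternative, companions included, 2144 kept their call, 380 lost it and 0 changed direction. The tally covers only genes called with all libraries. Calls gained under an alternative, such as Scd1 in Sca-1+ against Sca-1- luminal, higher without Sca-1+ luminal replicate 3, are not in it. It cannot show a change of direction of such genes. Placement by exact ends only left every transcript of the 34 genes in use.

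A lone library left in a group was assumed to vary like the other groups. Dhcr7, Lss, Acaca and Elovl6 lie near 1 FPKM in several libraries, where few fragments and the pseudocount limit precision.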

Other observations

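The transcript of 4427 nt of Acly made up 35.3% to 36.1% of the gene's FPKM in stromal, 50.3% to 58.3% in basal, 28.3% to 48.7% in Sca-1+ luminal and 26.4% to 31.4% in Sca-1- luminal libraries. The basal libraries had the highest shares of this transcript and, in basal replicate 2, the lowest Acly level of the 10 libraries (12.3 FPKM). The transcript was picked because its share varied most, and it has the same ends as an Acly transcript of 4397 nt. Sca-1- luminal replicate 2 also had 6.80 FPKM of a 1444-nt transcript that was at 0 in every other library. How well the estimates separate transcripts that share most of their length was not tested, nor were the differences in share.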
